A study of Drosophila melanogaster with 10 samples.

Results

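Drosophila melanogaster SL2 cells that received 1 double-stranded RNA (dsRNA) against Tip60, the one the labels place at positions 1321-1618 of the target, were compared with cells that received either of the 2 other Tip60 dsRNAs in the study, 190-807 and 603-1116. The comparison rested on the 2 arrays of dsRNA 1321-1618 and the 4 arrays of the other dsRNAs (2 each), so 6 of the 10 arrays in the series. The remaining 4 arrays, from cells given a mock dsRNA against eGFP, which the fly genome lacks, gave a reference level and entered the shared estimate of the spread. All groups used the same embryonic cell line at 26°C, 10 µg of dsRNA and a harvest after 5 days, and none is described with any other genetic change. The question was which transcripts differed with the dsRNA used against the same target.

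Tip60 is a histone acetyltransferase that works in a large chromatin complex, together with the ATPase Domino, which exchanges the histone variant H2Av. In fly cells, long dsRNA in the medium is taken up, Dicer-2 cuts it into short interfering RNAs, and these guide Argonaute-2 to matching transcripts. Separate dsRNAs against 1 gene therefore share the target but not the short RNAs made from them. By the positions in the labels, dsRNA 1321-1618 was 298 nt long, 190-807 was 618 nt and 603-1116 was 514 nt. The 2 reference dsRNAs overlapped by 205 nt and so shared part of their sequence, while dsRNA 1321-1618 shared no position with either and began 204 positions beyond the end of 603-1116. Separate cultures are not stated for the arrays of any group, and the p-values therefore cover the spread among these arrays alone, part or all of which may be technical. With 1 dsRNA on 2 arrays, an effect of its sequence and an effect of the preparation or cultures it was used in cannot be told apart.

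Values are the deposited signals, a measure of hybridisation brightness, and in the files their trimmed mean was the same, 1000.03, on every array. The median signal over all fly probe sets (the groups of probes that report 1 transcript) was 90.8 and 78.6 on the arrays of dsRNA 1321-1618 and 83.1 to 110.1 on the 4 arrays of the other dsRNAs, against 55.6 to 72.1 on the eGFP arrays. Macrophage-like blood cell genes, which SL2 cells are known for, were bright with dsRNA 1321-1618: the hemocyte genes Hml, Pxn, eater, NimC1 and Sr-CI and the GATA factor srp had mean signals of 29374, 34540, 16476, 12494, 13803 and 17508. None of these 6 passed the test between the dsRNAs. In RNA from whole cultures, fewer cells of a kind and less RNA per cell cannot be told apart. Of 64 genes written as markers of other cell types, 26 were above the filter on dim probe sets described below. Of these 26, 0 were called different and 3 had an unadjusted p under 0.05. Over all probe sets tested, the shares were 0.0355% and 8.09%. Across the 11261 probe sets tested, 2 arrays of the same dsRNA correlated at 0.957 to 0.966 (3 pairs, Pearson's r of log2 signals) and an array of dsRNA 1321-1618 correlated with an array of another dsRNA at 0.956 to 0.967 (8 pairs). The first principal component of the 6 arrays, with 25.2% of the variance, set replicate 1 of dsRNA 190-807 apart at −51.5 (others −11.6 to 25.9). The second, with 23.5%, had replicate 2 of dsRNA 1321-1618 at 46.2 and replicate 1 at 1.81.

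Tip60 itself fell with all 3 dsRNAs (log2 against eGFP −2.14, −2.10 and −1.89 for 1321-1618, 190-807 and 603-1116, adjusted p at most 1.75e-05), and its level was not called different between them. Its signal was 1339, 1315, 1163 and 1138 on the eGFP arrays, 287 and 276 with dsRNA 1321-1618, 209 and 400 with 190-807, and 382 and 292 with 603-1116. All 6 values lay far below the eGFP arrays, and those of dsRNA 1321-1618 lay inside the range of the other dsRNAs. The mean was 281 ± 8.0 (SD, n = 2) against 321 ± 88.3 (n = 4), a log2 difference of −0.14 (95% interval −0.59 to 0.30, adjusted p = 0.927 with limma), and an exact two-sided permutation test over the 15 splits of 6 arrays gave p = 0.733, where 0.0667 is the smallest p this design allows. The sign of the difference turned without replicate 3 of dsRNA 190-807 (0.09), with arrays centred on their median (0.02) and with poly-A scaling (0.13).

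Neighbours and partners of Tip60 gave no called difference between the dsRNAs. The nearest genes on its chromosome with a probe set were dgt4, a subunit of the augmin complex of the mitotic spindle, tyf, which drives translation of the clock gene period, the RNA methyltransferase gene Nsun2 and the glucuronyltransferase gene GlcAT-I. Their log2 differences, dsRNA 1321-1618 minus the others, were 0.02 for dgt4, 0.20 for Nsun2, 0.22 for GlcAT-I and −0.32, −0.13 and −0.05 for the 3 tyf probe sets, with adjusted p values of 0.613 or more. Among 13 measured members of the Tip60 complex list, 0 passed the test, against 0.0355% of all probe sets tested. At that share, 0 of 13 says little. The median log2 difference was −0.03, against −0.02 over all probe sets tested. MrgBP, a subunit that binds the chromodomain protein MRG15, was the only one of the 13 with an unadjusted p under 0.05. Of all probe sets tested, 8.09% had such a p and 15.6% had both arrays of dsRNA 1321-1618 beyond all 4 others. Its signal was 3694 and 3905 with dsRNA 1321-1618 and 2504 to 3326 on the 4 arrays of the other dsRNAs, so the groups did not overlap, and the eGFP arrays read 3977 to 5115. The log2 difference was 0.38 (95% interval 0.14 to 0.62, adjusted p = 0.372).

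Few transcripts separated dsRNA 1321-1618 from the other Tip60 dsRNAs. A moderated linear model (limma) over all 10 arrays tested 11261 of 18769 fly probe sets, those whose mean log2 signal reached the 40th percentile (a signal of 34.5), and a probe set was called at a Benjamini-Hochberg adjusted p under 0.05. It called 1 probe set higher with dsRNA 1321-1618 (0.00888% of those tested) and 3 lower (0.0266%), 4 in all (0.0355%). An unadjusted p under 0.05 was reached by 911 probe sets (8.09%), against 950 (8.44%) between the 2 reference dsRNAs, 1028 (9.13%) between 1321-1618 and 190-807 and 817 (7.26%) between 1321-1618 and 603-1116. The same fit called 2671 probe sets (23.7%) for dsRNA 1321-1618 against eGFP, 2492 (22.1%) for 190-807 and 3060 (27.2%) for 603-1116; these 3 comparisons share the eGFP arrays. Both arrays of dsRNA 1321-1618 lay beyond all 4 others for 1753 probe sets (15.6%), above for 713 and below for 1040. Leaving out eGFP replicate 3-2 gave 2 higher and 7 lower calls, and leaving out replicate 1 or 2 of dsRNA 1321-1618 gave 7 and 6 lower calls. With arrays scaled to their poly-A spike-ins, which moved the median difference of all probe sets from −0.02 to 0.25, 10 were called higher and 3 lower.

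**Figure D1:**
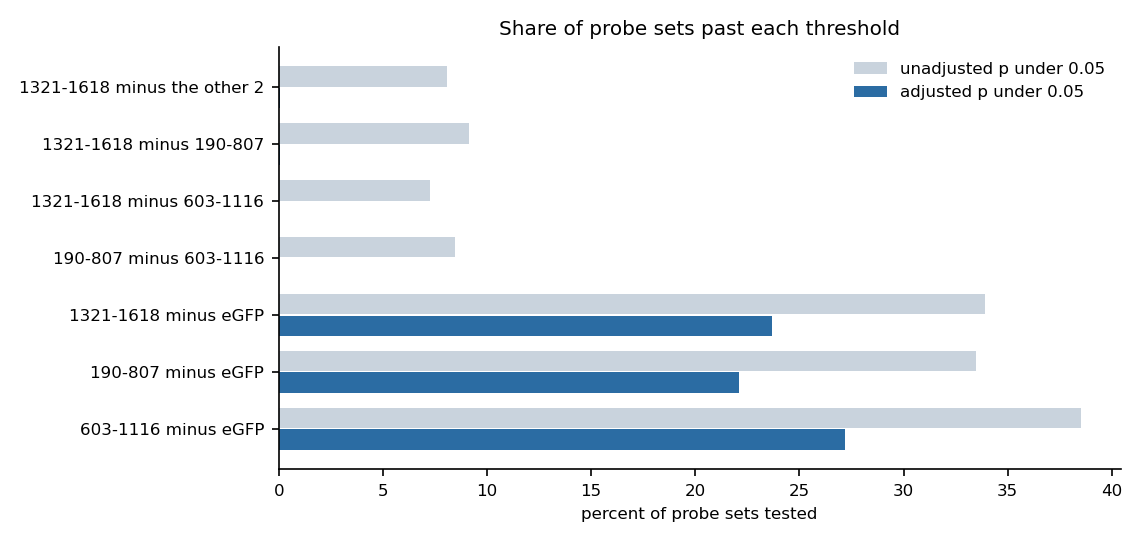
Share of the 11261 probe sets tested that passed each threshold (x axis, percent) in 7 comparisons (y axis), pale bars for an unadjusted p under 0.05 and dark bars for an adjusted p under 0.05. The 4 comparisons between Tip60 dsRNAs reached 7.26% to 9.13% unadjusted and at most 0.0444% adjusted, while each dsRNA against eGFP reached 22.1% to 27.2% adjusted.

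The data bounded most differences closely, except among dim probe sets. The median absolute log2 difference was 0.135, with a median 95% half-interval of 0.316, and for 7803 probe sets (69.3%) the whole interval lay within a 2-fold change either way. A difference of 2-fold or more was fitted for 650 probe sets (5.77%), 219 higher and 431 lower, against 888 (7.89%) between 190-807 and 603-1116. Of the 650, 617 fell in the dimmest of 4 equal brightness classes (signals 34.5 to 91.1), where the median half-interval was 1.64 and 19 of 2816 probe sets (0.675%) were bounded within 2-fold. In the 2 brightest classes, from a signal of 752 upward, 0 probe sets differed by 2-fold or more, and 2809 of 2815 and 2813 of 2815 were bounded within 2-fold.

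**Figure D2:**
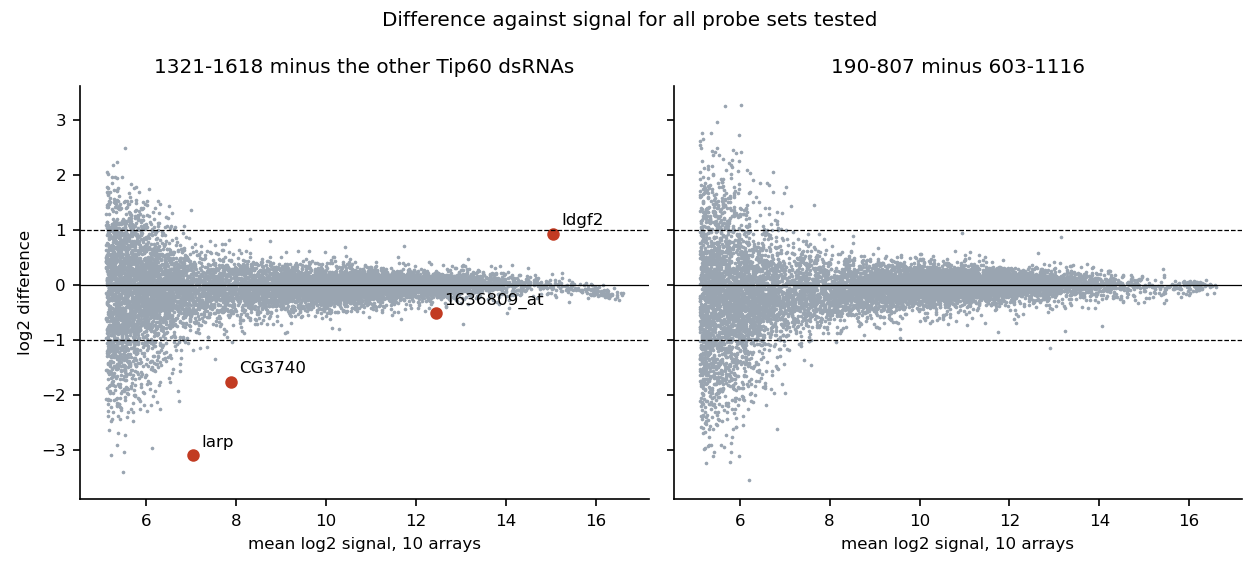
Fitted log2 difference (y axis) against mean log2 signal over 10 arrays (x axis) for all probe sets tested, for dsRNA 1321-1618 minus the other Tip60 dsRNAs (left) and for 190-807 minus 603-1116 (right); dashed lines mark 2-fold and red points an adjusted p under 0.05. The left panel has 4 red points, the cloud of other points widens toward dim signals, and the right panel has 0 red points.

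Idgf2 was the 1 probe set called higher. It encodes a secreted chitinase-like growth factor of the imaginal disc growth factor family. Its signal was 47630 and 56528 with dsRNA 1321-1618, against 25361 and 24794 with 190-807, 29616 and 29416 with 603-1116, and 31648, 36110, 34424 and 32795 on the eGFP arrays. Both arrays of dsRNA 1321-1618 stood above every other array of the series. The difference was 1.91-fold (log2 0.93, SE 0.098, 95% interval 0.72 to 1.14, adjusted p = 0.00165). Set against eGFP, with shared control arrays, Idgf2 was higher with dsRNA 1321-1618 (log2 0.62, adjusted p = 0.000355) and lower with 190-807 (−0.43, 0.00575), and with 603-1116 it did not pass (−0.19, 0.165).

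The rest of its family did not separate the dsRNAs. The log2 difference was 0.10 for Idgf1 (95% interval −0.11 to 0.30), −0.09 for Idgf6 (−0.38 to 0.21) and 0.00 for the brighter Idgf3 probe set (−0.19 to 0.19). Idgf3 read 33923 and 37042 with dsRNA 1321-1618 and 33622 to 36364 with the others, all above the eGFP arrays at 23660 to 25157. The second Idgf3 probe set gave 0.16 (−0.46 to 0.79). The interval of Idgf4, a dimmer probe set, passed 2-fold on both sides (−1.42 to 1.41), and Idgf5 lay below the filter. These relatives and the other probe sets of called genes were picked after the calls were known.

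The largest called difference was in 1 of 3 probe sets of larp, which encodes an RNA-binding La-related protein that regulates translation. Probe set 1637315_at read 19.6 and 27.3 with dsRNA 1321-1618, against 243 and 134 with 190-807, 213 and 219 with 603-1116, and 152, 183, 232 and 293 on the eGFP arrays. The eGFP arrays and the other Tip60 dsRNAs overlapped, and dsRNA 1321-1618 alone lay below both, under the level of the filter. With both of these arrays set to the filter level of 34.5, the signal was 5.72-fold lower than with the others, an estimate that leaves out the spread among arrays. The fit on the signals as deposited gave a log2 difference of −3.09 (SE 0.36, 95% interval −3.87 to −2.31, adjusted p = 0.0032), and log2(signal + 32) gave −2.06. The 2 other larp probe sets did not follow. The brightest, 1633759_s_at, read 1694 and 1704 with dsRNA 1321-1618 and 1240 to 1853 with the others (log2 difference 0.19, 95% interval −0.09 to 0.47), and 1636301_s_at gave 0.36 (−0.27 to 1.00). What distinguishes the transcript regions of these probe sets was not examined here.

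CG3740 was lower with dsRNA 1321-1618 in every comparison among the Tip60 dsRNAs. It read 99.0 and 107 with dsRNA 1321-1618, 322 and 273 with 190-807, 464 and 359 with 603-1116, and 224, 231, 231 and 279 on the eGFP arrays. The arrays of dsRNA 1321-1618 lay below all 8 others, and 7 of those 8 lay within 224 to 359. The fitted signal was 29.6% of the others (log2 −1.75, SE 0.21, 95% interval −2.21 to −1.30, adjusted p = 0.0032). Against eGFP the log2 change was −1.22 with dsRNA 1321-1618 (adjusted p = 0.000791), 0.30 with 190-807 (0.345) and 0.76 with 603-1116 (0.0153), so CG3740 fell with the first and rose with the last. The genes that adjoin it were dor, a vacuolar sorting gene, and hfw. Their differences were −0.18 (95% interval −0.42 to 0.06) and −0.06 (−0.27 to 0.14), and neither was called.

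The last called probe set, 1636809_at, has no gene name in the annotation used. It read 3502 and 4098 with dsRNA 1321-1618, 5961 and 5739 with 190-807, 5032 and 4855 with 603-1116, and 6742 to 7406 on the eGFP arrays. Here all 3 Tip60 dsRNAs lay below eGFP, and 1321-1618 lay lowest. The signal was 70.5% of the others (log2 −0.51, SE 0.079, 95% interval −0.67 to −0.34, adjusted p = 0.0433). Against eGFP it was −0.90, −0.27 and −0.51 for 1321-1618, 190-807 and 603-1116, each called (adjusted p = 2.05e-06, 0.0243 and 0.000273).

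**Figure D3:**
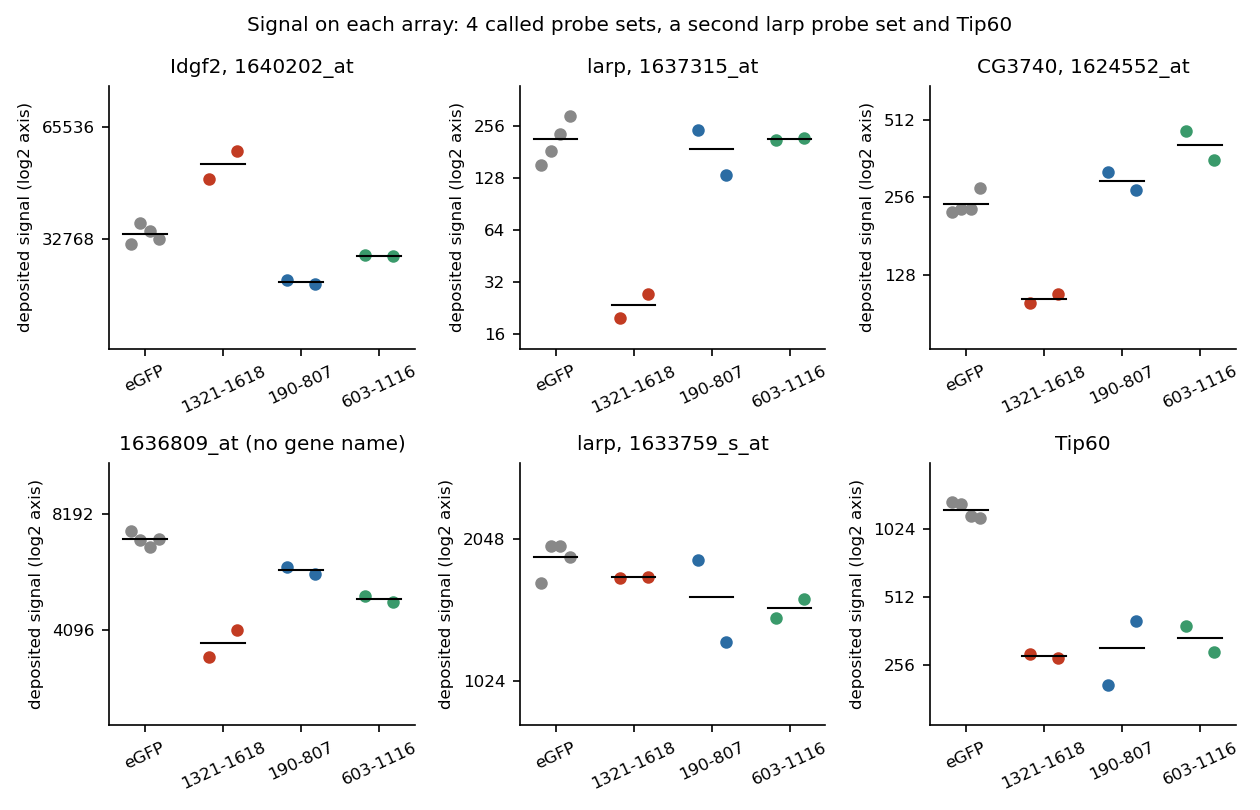
Deposited signal on each array (y axis, log2 scale, own range per panel) for the 4 called probe sets, the brightest larp probe set and Tip60; points are single arrays grouped by dsRNA on the x axis and bars are group means. Idgf2 reads 47630 and 56528 with dsRNA 1321-1618, above all other arrays, larp 1637315_at and CG3740 read below all others, and the Tip60 values of the 3 dsRNAs overlap.

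The calls differed in how much they rested on single arrays and on the variance model. Idgf2, the larp probe set and CG3740 stayed under an adjusted p of 0.05 without each of the 10 arrays in turn (at most 0.034, 0.034 and 0.0379). CG3740 also stayed called under all 15 other settings tried. With no intensity trend in the variance model, Idgf2 (0.0635) and larp (0.0635) missed the threshold, and in a fit of the 6 Tip60 RNAi arrays alone larp did (0.0715). The stricter filter, at a signal of 187.8, left the larp probe set untested. The probe set 1636809_at lost its call without eGFP replicate 2-2 (0.103) or 3-1 (0.0722), replicate 1 of 1321-1618 (0.149), replicate 1 (0.0542) or 3 (0.0695) of 190-807, or replicate 1 (0.278) or 3 (0.216) of 603-1116. It also lost it under 9 of 15 other settings.

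Since few genes were called, the genes with the smallest p and no overlap of the arrays were added up to 6 in each direction; these were not called with the settings used throughout. Toward higher signal they were Mgstl, a microsomal glutathione transferase, regucalcin, a calcium-binding protein, Coq8, a kinase-like protein of ubiquinone synthesis, and the uncharacterised CG34331 and CG5080. Coq8 read 1131 and 1020 with dsRNA 1321-1618, 632 to 787 with the others and 666 to 927 with eGFP (log2 difference 0.63, 95% interval 0.32 to 0.94, adjusted p = 0.31). Mgstl read 9573 and 10178, against 6587 to 7700 with the others and 10042 to 12514 with eGFP (0.48, interval 0.27 to 0.69, adjusted p = 0.211). For Mgstl the eGFP arrays and dsRNA 1321-1618 overlapped and the other dsRNAs lay lower. CG34331 ran the other way, with 5185 and 5353 against 3124 to 4230 and only 1643 to 2280 with eGFP (0.52, adjusted p = 0.211). CG5080 gave 0.42 (adjusted p = 0.222) and regucalcin 0.35 (0.241).

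Toward lower signal the added genes were Unr, an RNA-binding protein that represses msl-2 translation in female flies, PMCA, the plasma membrane calcium pump, gpp, the Dot1-type histone H3 methyltransferase, and CG42671. Unr came closest to a call, with 832 and 746 on the arrays of dsRNA 1321-1618 against 1217 to 1527 with the others and 896 to 1363 with eGFP (log2 difference −0.78, 95% interval −1.07 to −0.50, adjusted p = 0.0756). PMCA read 2606 and 2622, against 3680 to 4174 with the others and 2476 to 3571 with eGFP (−0.61, interval −0.87 to −0.36, adjusted p = 0.211). The level of PMCA with dsRNA 1321-1618 thus lay in the range of the mock-treated cells. CG42671 gave −0.46 and gpp −0.36 (both adjusted p = 0.211). For gpp all 6 Tip60 RNAi arrays, at 2708 to 3735, lay above the eGFP arrays at 2082 to 2261. Some of the added genes passed the threshold under other settings. Unr did in the fit of the 6 Tip60 RNAi arrays (adjusted p = 0.0425), with no filter (0.0464) and without eGFP replicate 2-1 (0.0145) or 3-2 (0.0345). PMCA did in the 6-array fit (0.0425) and without eGFP replicate 3-2 (0.0439), and CG34331 did without eGFP replicate 3-2 (0.0439). With poly-A scaling CG34331 (0.0193), Coq8 (0.023) and Mgstl (0.0379) passed.

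Each reference dsRNA was also set against dsRNA 1321-1618 on its own, with the arrays of dsRNA 1321-1618 in both comparisons. Against 190-807, 5 probe sets were called (0.0444%), namely the 4 above and Pi4KIIIalpha, a phosphatidylinositol 4-kinase of the plasma membrane. Pi4KIIIalpha read 1848 and 2194 with dsRNA 1321-1618, 3285 and 3520 with 190-807, 2298 and 2164 with 603-1116 and 1727 to 2050 with eGFP. It was thus 190-807 that stood apart from all other arrays (1321-1618 minus 190-807 −0.76, SE 0.11, adjusted p = 0.0197). Its difference between 190-807 and 603-1116 was not called, however (0.61, adjusted p = 0.133 with limma). Against 603-1116, 3 probe sets were called (0.0266%), Idgf2, larp 1637315_at and CG3740. Between 190-807 and 603-1116, limma called 0 (0%), with a smallest adjusted p of 0.0998 and 950 probe sets at an unadjusted p under 0.05.

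The genes with the smallest p between the reference dsRNAs, none of them called, were read for where dsRNA 1321-1618 lay. Atilla, a surface protein that marks lamellocytes, read 2092 and 2406 with dsRNA 1321-1618 and 2185 and 2323 with 603-1116, against 1263 and 1066 with 190-807 and 174 to 240 with eGFP. The difference between 190-807 and 603-1116 was −0.96 (95% interval −1.31 to −0.60, adjusted p = 0.133). CG33225 followed the same order, with 5813 and 4893 for 1321-1618, 5829 and 5768 for 603-1116, 3822 and 3192 for 190-807 and 535 to 713 for eGFP (adjusted p = 0.137). CG3348 and the peroxiredoxin Prx6c were higher with 190-807 than with 603-1116 by 0.87 and 0.95 (both adjusted p = 0.0998), with mean signals of 8977 and 1735 for 1321-1618 between those of the reference dsRNAs. The pairwise counts moved with single arrays. For 1321-1618 against 190-807 they were 56 without replicate 1 of 190-807, 10 without its replicate 3 or eGFP replicate 3-2 and 1 without either replicate of 603-1116. For 1321-1618 against 603-1116 they were 12 without replicate 1 of 1321-1618 and 0 without its replicate 2 or either replicate of 603-1116. For 190-807 against 603-1116 they were 44 without replicate 3 of 190-807 and 1 without its replicate 1, eGFP replicate 3-1 or eGFP replicate 3-2.

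The genes that changed most after Tip60 RNAi were not called different between the dsRNAs. The 10 strongest risers and the 10 strongest fallers were taken from the 3 dsRNAs together against eGFP, so their changes against eGFP chose them and are a description. The arrays of dsRNA 1321-1618 counted in that choice, so a gene that moved more with it could enter for that reason, and the counts between dsRNAs below are a description too. Limma called 0 of the 20 different between dsRNA 1321-1618 and the others, against 0.0355% of all probe sets tested. At that share, 0 of 20 says little about agreement. Of the 20, 3 had an unadjusted p under 0.05, against 8.09% of all tested. The whole 95% interval lay within 2-fold for 6 of the 10 risers and 3 of the 10 fallers. CG43125 had the narrowest interval of the 10 risers, with 6676 and 6831 for dsRNA 1321-1618, 6637 and 6595 for 190-807, 6950 and 7260 for 603-1116 and 678 to 697 for eGFP. Its difference between dsRNAs was −0.02 (95% interval −0.17 to 0.13). The methuselah-like receptor gene mthl2 read 4102 and 3688 with dsRNA 1321-1618, 2978 to 4084 with the others and 78.8 to 136 with eGFP (difference 0.10, interval −0.32 to 0.52). For CG34054 (0.00), the serine protease-like CG10764 (0.03) and the angiotensin-converting enzyme relative Ance-5 (0.10) the arrays of dsRNA 1321-1618 also overlapped the others. Lectin-24A, a secreted C-type lectin, read 549 and 533 with dsRNA 1321-1618 and 630 to 769 with the others, but eGFP read 7.91 to 43.6 and the interval was wide (−1.36 to 0.73).

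Among the 10 fallers, 3 had an unadjusted p under 0.05, and none of these was called. The phototransduction channel gene trp read 11.3 and 29.3 with dsRNA 1321-1618, 49.3 to 85.9 with the others and 106 to 154 with eGFP (difference −1.79, 95% interval −2.94 to −0.64, adjusted p = 0.372). Both arrays of dsRNA 1321-1618 were under the filter level. With both set to that level, the signal was 1.82-fold lower, an estimate that leaves out the spread among arrays. Against eGFP trp gave −2.80 with 1321-1618, −0.80 with 190-807 and −1.22 with 603-1116, so it was chosen largely through 1321-1618. Nvy, a transcriptional co-repressor of the ETO family, read 168 and 139, against 188 to 255 with the others and 470 to 614 with eGFP (−0.54, interval −0.96 to −0.12, adjusted p = 0.492). CG31546 lay higher with dsRNA 1321-1618, at 209 and 184 against 88.2 to 166 with the others and 331 to 404 with eGFP (0.75, interval 0.23 to 1.28, adjusted p = 0.416). CG16888 (0.01, interval −0.32 to 0.33) and CG4570 (−0.17, −0.39 to 0.05) were the best bounded of the 10.

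**Figure D4:**
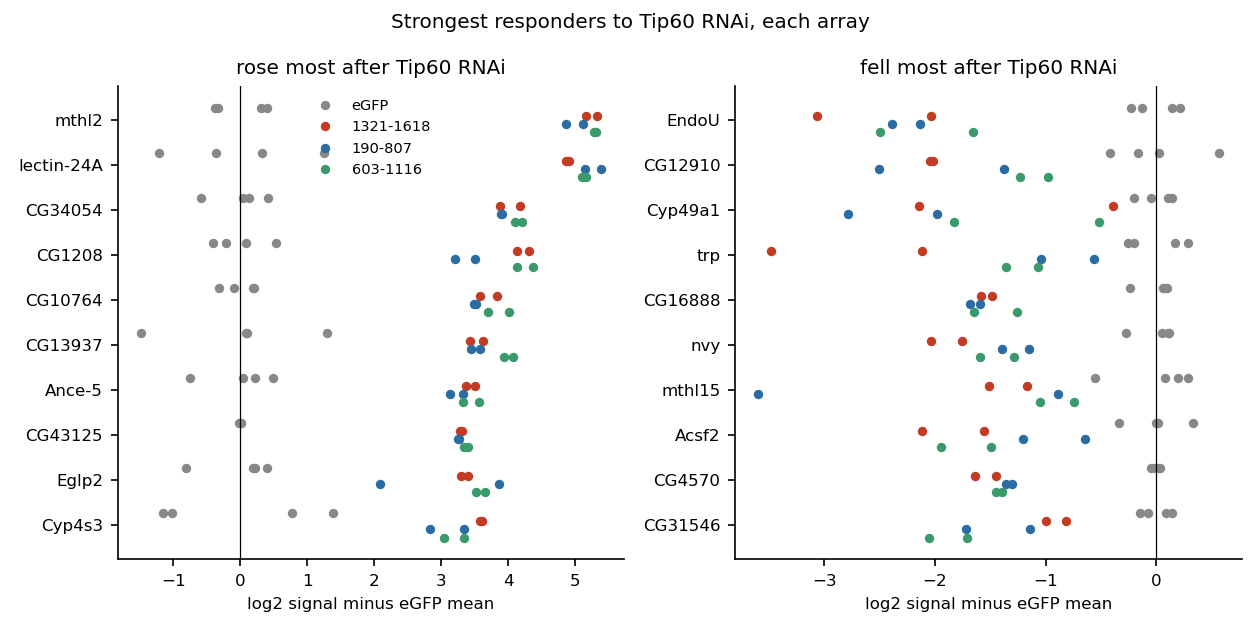
Log2 signal of each array minus the mean of the eGFP arrays (x axis) for the 10 strongest risers (left) and 10 strongest fallers (right) after Tip60 RNAi (y axis); colours give the dsRNA and each point is 1 array. The 3 dsRNAs lie together for most genes, and trp shows the arrays of dsRNA 1321-1618 lowest, at 11.3 and 29.3 in signal.

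The wider response had similar medians with each dsRNA. Taking the 3 dsRNAs together against eGFP, 491 probe sets rose 2-fold or more, and their median log2 change was 1.51 with dsRNA 1321-1618, 1.44 with 190-807 and 1.60 with 603-1116. For these 491 the median difference between dsRNA 1321-1618 and the others was 0.00; 0 were called and 36 (7.33%) had an unadjusted p under 0.05, against 8.09% of all tested. For 42 that fell 2-fold or more the medians were −1.29, −1.27 and −1.35. Of these 42, 1 was called and 11 (26.2%) had an unadjusted p under 0.05, a larger share than the 8.09% of all tested. The arrays of dsRNA 1321-1618 counted in the choice of both sets. Both sets were chosen on the 3 dsRNAs together and the medians share the eGFP arrays, so similar medians say little about agreement. The mean log2 signal of probe sets under the filter was 3.85 to 4.44 on the Tip60 RNAi arrays and 3.26 to 3.72 on the eGFP arrays. Poly-A spike-ins gave 9.07 to 9.61 against 8.36 to 8.78. Whether this difference between arrays added to the 491 was not tested. The whole 95% interval lay within 2-fold for 212 (43.2%) of the 491 and 23 (54.8%) of the 42, against 69.3% of all tested. The 42 held the called larp probe set, which against eGFP gave −3.17 with dsRNA 1321-1618, −0.21 with 190-807 and 0.05 with 603-1116 and so entered through 1321-1618 alone. Cyp4d1, a cytochrome P450 gene picked after its values were seen, had the highest difference of these 42. It read 58.1 and 107 with dsRNA 1321-1618, 19.7 to 24.4 with the others and 73.8 to 119 with eGFP (log2 difference 1.84, 95% interval 0.56 to 3.12, adjusted p = 0.417). For Cyp4d1 the arrays of dsRNA 1321-1618 overlapped the eGFP arrays and the other dsRNAs read lower, below the filter level. With the other dsRNAs set to the filter level of 34.5, the difference was 2.28-fold, an estimate that leaves out the spread among arrays.

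No gene of the pathway and cell type lists was called different between dsRNA 1321-1618 and the others. Over 31 lists with 671 measured genes, limma called 0 genes, against 0.0355% of all probe sets tested. An unadjusted p under 0.05 was reached by 54 (8.05%), against 8.09% of all probe sets tested. List medians of the log2 difference ran from −0.12 (germline and ovarian somatic markers) to 0.10 (muscle markers, 3 genes), against −0.02 over all probe sets. Genes of RNA interference and dsRNA uptake had 19 measured members, 2 of them with an unadjusted p under 0.05 and both lower, and a median of 0.00. Dcr-2, which dices long dsRNA, gave 0.00 (95% interval −0.18 to 0.18), its partner r2d2 0.26 (−0.14 to 0.66) and Tudor-SN, a nuclease of the silencing complex, 0.04 (−0.13 to 0.22). The lowest and highest of the 19 were vig (−0.26) and qin (0.47). Among 11 measured dsRNA-responsive and antiviral genes, 0 had an unadjusted p under 0.05. Of these, vir-1, which virus infection induces in flies, gave 0.15 (−0.10 to 0.41), Sting −0.02 (−0.19 to 0.15) and Vago 0.13 (−0.36 to 0.61). The lowest and highest of the 11 were upd2 (−0.15) and Diedel (0.91), and 7 of the 11 were bounded within 2-fold. Heat shock and chaperone genes (18 measured), the unfolded protein response (14) and cell death genes (12) also had 0 members with an unadjusted p under 0.05.

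Cell cycle genes had medians below those of eGFP with each dsRNA. The median log2 change of 38 mitosis genes against eGFP was −0.54 with dsRNA 1321-1618, −0.53 with 190-807 and −0.43 with 603-1116, and that of 38 DNA replication genes was −0.40, −0.35 and −0.30. Each of these lists had 0 called genes and 1 with an unadjusted p under 0.05 between the dsRNAs. Bub1, a kinase of the spindle checkpoint, was the one among the mitosis genes, at 1698 and 1759 with dsRNA 1321-1618, 1907 to 2193 with the others and 1823 to 2037 with eGFP (log2 difference −0.25, adjusted p = 0.421). Hemocyte markers had medians of 0.41, 0.43 and 0.64 against eGFP, with a median difference of 0.00 between dsRNA 1321-1618 and the others over 32 genes.

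**Figure D5:**
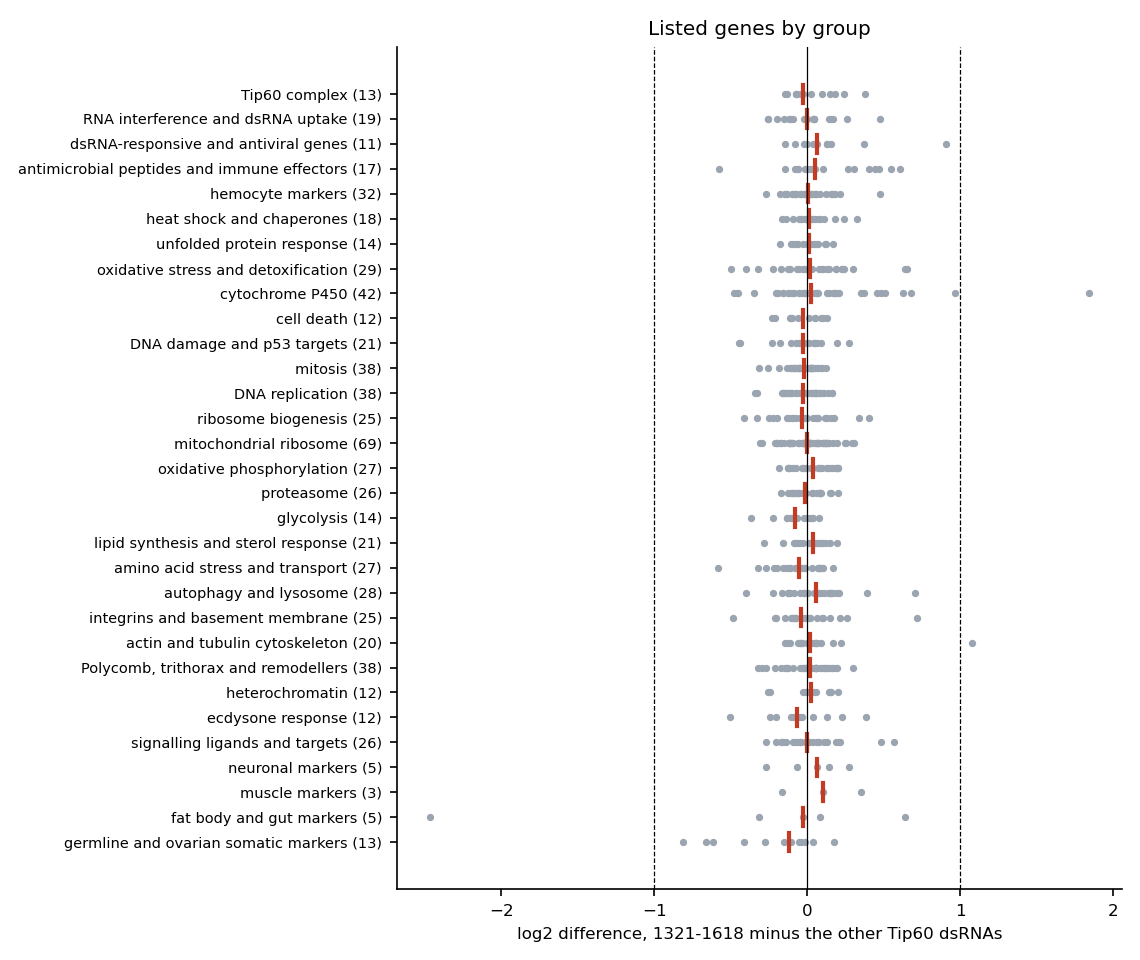
Log2 difference between dsRNA 1321-1618 and the other Tip60 dsRNAs (x axis) for the measured genes of 31 lists (y axis, number measured in parentheses); grey points are genes, red bars list medians and dashed lines 2-fold. Medians lie between −0.12 and 0.10, and the points past 2-fold are the dim genes Cyp4d1, betaTub85D and betaTry.

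Of the 31 lists, the one of antimicrobial peptides and immune genes had the most members that were higher with dsRNA 1321-1618 at an unadjusted p under 0.05. It holds secreted peptides and also signalling genes such as Rel, cact and imd. Of its 17 measured members, 5 had such a p, all higher with dsRNA 1321-1618, against 8.09% of all probe sets in either direction, and 0 were called. The 5, picked after their values were seen, were DptB, Mtk, Drs and edin, which are immune-induced, and Rel, the NF-kappaB factor of the Imd pathway. DptB, a diptericin, read 1720 and 1637 with dsRNA 1321-1618, 850 and 1033 with 190-807, 1429 and 1184 with 603-1116 and 593 to 884 with eGFP (log2 difference 0.60, 95% interval 0.30 to 0.91, adjusted p = 0.343). Mtk, metchnikowin, read 2906 and 2563, against 1704 and 1558 with 190-807, 2289 and 2473 with 603-1116 and 662 to 874 with eGFP (0.47, interval 0.22 to 0.72, adjusted p = 0.343). In DptB and Mtk the 3 dsRNAs stood in the same order, with 1321-1618 highest, then 603-1116, then 190-807; between 603-1116 and 190-807 neither was called (adjusted p = 0.489 and 0.331). Drs, drosomycin, read 7775 and 6467, against 4780 on both arrays of 190-807 and 5483 and 6590 with 603-1116 (0.40, adjusted p = 0.343), so its groups overlapped. Rel gave 0.30 and edin 0.44 (adjusted p = 0.343 and 0.598). CecB, a cecropin, gave 0.05 (95% interval −0.16 to 0.26), and the list median was 0.05. The lowest member, spirit, gave −0.58, with an unadjusted p not under 0.05. With poly-A scaling DptB was called (0.87, adjusted p = 0.0193), and it was the only listed gene called under any setting.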

How the data were processed

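Affymetrix fly arrays measured RNA of 10 SL2 samples. The authors deposited 1 signal intensity per probe set and array, on a linear scale, made with GCOS 1.4 per the submitters' processing notes; no other step is given in the sources used here. Here log2 intensities of 11261 fly probe sets, those at or above the 40th percentile of the mean, were fitted with limma 3.58.1 in R 4.3.3 as 4 group means over all 10 arrays, with an intensity trend and Benjamini-Hochberg adjustment over all of them; the contrast was dsRNA 1321-1618 minus the average of the other 2 Tip60 dsRNA means. Code was tested on simulated data. The number of arrays limits the precision.

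Of 18769 fly probe sets, 13647 had 1 gene symbol in the platform annotation, 402 several and 4720 none; 13544 were updated through Entrez identifiers. A listed gene was represented by its brightest probe set. Genes were named by rule: Tip60, called complex members and its 2 nearest genes on each side; the 14 highest and 14 lowest called genes with 1 symbol and no overlap of arrays, filled up to 6 by smallest p; up to 2 called each way per list; and 3 each way between the reference dsRNAs, by smallest p because none was called. The 20 responders, the relatives and neighbours of called genes and other genes said to be picked later fall outside it. The comparison and all lists were chosen with earlier results of these data known. Alternatives covered scaling, filter, offset, variance model, arrays and left-out replicates. No sequence of the dsRNAs or transcripts was used here.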

Additional observations from a re-analysis of the deposited data

Results flagged for a closer look

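Of 54 results screened for an eGFP array that stood far from the other 3, 3 were picked out, where chance picks about 1 in 20 groups. CG3740 read 279 on eGFP replicate 3-2 and 224 to 231 on the others, tyf probe set 1639405_at read 604.5 on eGFP replicate 2-2 against 466 to 489, and CG16888 read 829 on eGFP replicate 2-2 against 1021 to 1043. Replicate 3-2 was thus the eGFP array farthest from the dsRNA 1321-1618 level of CG3740, and CG3740 kept its call without it.

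Signal differed between dsRNA 1321-1618 and the other Tip60 dsRNAs, by limma's test of the difference itself, for 4 probe sets. The log2 differences were 0.93 for Idgf2, −1.75 for CG3740, −3.09 for larp probe set 1637315_at and −0.51 for the unnamed probe set 1636809_at. The larp probe set was under the filter level with dsRNA 1321-1618, and 5.72-fold lower with those arrays set to that level. In each of the 4, both arrays of dsRNA 1321-1618 lay beyond all 4 others, as they did for 15.6% of all probe sets tested.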

How the results depend on the processing

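Across 15 other settings and 10 left-out arrays, the count of calls between dsRNA 1321-1618 and the other Tip60 dsRNAs stayed small except with poly-A scaling. Higher calls numbered 10 with poly-A scaling and 0 with no intensity trend, against 1, and lower calls 5 with no filter and 1 with no trend, against 3; left-out arrays gave 1 to 2 higher and 2 to 7 lower. For 1321-1618 against 190-807 (5 calls) the count was 3 with median centring or hybridization spike-in scaling, 9 with the stricter filter, 11 with log2(signal + 32), 0 with no trend and 1 with array weights, and 1 to 56 with left-out arrays. For 1321-1618 against 603-1116 (3 calls) it was 41 with poly-A scaling, 0 in the fit of the 6 Tip60 RNAi arrays, 1 with no trend and 0 to 12 with left-out arrays. For 190-807 against 603-1116 (0 calls) it was 4 with median centring, 3 with hybridization spike-ins, 12 with poly-A scaling, 2 with no filter and 0 to 44 with left-out arrays. The Tip60 difference turned to 0.020 with median centring and 0.13 with poly-A scaling, and ran from −0.38 to 0.091 with left-out arrays, never called (adjusted p 0.434 or more). Scaling to the median, hybridization or poly-A spike-ins moved the median of all tested differences from −0.02 to 0.15, 0.12 and 0.25; the array measures behind this gave exact permutation p = 0.333 to 0.533 between the dsRNAs (smallest possible 0.0667). Numbers 1 and 3 of the reference dsRNAs did not pair their arrays (r = 0.00226 between their deviations, across 11261 probe sets). With them as a replicate block, 1 was called higher and 2 lower, 1636809_at being lost (adjusted p = 0.0692), and the other calls did not change. The cause of these shifts was not tested. Array number, 2 per dsRNA, and dim signal limit what could be called.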
